A study of Mus musculus with 5 samples.

Results

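The 31 genes described here encode the glycolytic enzymes, the glucose and lactate carriers and a small set of regulators and targets of the hypoxia response. They were taken by name from a fixed list of gene columns, and all 31 were found among the 26189 genes of the deposited count tables. They were followed in CD45-sorted cells of the mouse aortic arch, measured by single-cell RNA sequencing with BD Rhapsody, a microwell platform that counts mRNA molecules by unique molecular identifiers. The series holds 5 samples, of which the aortic arch sample is used here and 4 cultured macrophage samples were not analysed here.

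The aortic sample pooled cells of 2 genotypes under separate sample tags, antibody-borne barcodes read with the transcriptome. 1 pool is labelled wild-type (C57BL/6J) and the other is labelled Saa3-/- (C57BL/6N-Saa3tm1.1(KOMP)Vlcg/MbpMmucd), a targeted allele of the serum amyloid A3 gene. Both groups were female mice, 12 weeks old when the injection was given according to the design text, described in the design as littermates although the strain names differ in substrain. Both had received a single injection of an AAV8 vector with a liver promoter (hAAT) to induce atherosclerosis, and both were fed a Western diet for 18 weeks. No group without the vector and the diet was analysed here, and the number of mice per pool is not given in the sources used here. Live CD45-positive cells were sorted, CD45 being the surface mark of blood-derived cells.

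Glycolysis splits glucose into pyruvate in the cytosol. Glucose enters through carriers such as GLUT1 (Slc2a1), is trapped by hexokinase, committed by phosphofructokinase, and the pyruvate is turned into lactate by lactate dehydrogenase and exported by monocarboxylate transporters. The transcription factor HIF-1, of which Hif1a encodes the oxygen-regulated subunit, raises many of these genes when oxygen is low and in activated myeloid cells, and foamy macrophages deep in atherosclerotic plaque are a textbook example of cells at low oxygen. HIF-1 binds DNA at a core of the letters ACGTG.

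That core was looked for, on both strands (ACGTG or CACGT, so that CACGTG counts once on each strand), in the 250 bases before the RefSeq start sites. Of the 31 genes, 29 had an entry in the RefSeq promoter table (GRCm38.p6), and 16 of them (55.2%) held a match before at least 1 start. The share was 20.0% of 17492 protein-coding genes and 18.5% of all 27025 genes in that table. A match is a description of these letters, not a bound site, and the share was not adjusted for base composition. The list was chosen as hypoxia-linked and holds known HIF targets, so its higher share is not an independent result. The 150 bases before the start are printed below for the 3 members that were past 2-fold in monocytes over macrophages (Pgk1, Slc16a3 and Hif1a) and for the lactate dehydrogenase pair, because the Ldhb share differed between cell classes. Capitals mark the matches, and each sequence runs 5′ to 3′ on the gene's strand. The windows are chrX:106186950-106187099 (plus strand), chr11:120948917-120949066 (plus), chr12:73907717-73907866 (plus), chr7:46845654-46845803 (plus) and chr6:142507958-142508107 (minus), all on GRCm38.
Pgk1: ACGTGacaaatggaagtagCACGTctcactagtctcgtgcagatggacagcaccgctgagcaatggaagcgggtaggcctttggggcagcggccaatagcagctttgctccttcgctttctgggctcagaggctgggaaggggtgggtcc
Slc16a3: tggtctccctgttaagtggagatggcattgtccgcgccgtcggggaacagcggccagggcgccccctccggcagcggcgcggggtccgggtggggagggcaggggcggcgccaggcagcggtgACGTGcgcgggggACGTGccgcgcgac
Hif1a: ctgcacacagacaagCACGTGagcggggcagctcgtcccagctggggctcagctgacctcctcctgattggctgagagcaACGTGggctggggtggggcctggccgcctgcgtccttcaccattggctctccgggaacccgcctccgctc
Ldha: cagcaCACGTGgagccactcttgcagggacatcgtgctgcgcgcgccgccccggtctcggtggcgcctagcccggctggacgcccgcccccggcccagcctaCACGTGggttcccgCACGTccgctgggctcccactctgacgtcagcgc
Ldhb: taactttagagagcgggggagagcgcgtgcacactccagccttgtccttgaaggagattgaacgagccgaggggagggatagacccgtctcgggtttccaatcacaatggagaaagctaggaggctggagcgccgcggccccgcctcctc
The Ldha window held 5 matches, Hif1a 3, Pgk1 2 and Slc16a3 2. Ldha has 2 listed starts, of which only the printed 1 had a match in its 250 bases, and the other printed genes have 1 start each. The Ldhb window held 0, which says only that these letters are not in this window.

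The pools held 833 and 823 cells after removal of cells with over 25% of molecules from mitochondrial genes (56 and 31 cells), pool labelled wild-type first here and in every pair of values below. The median depth was 6415 and 4698 molecules per cell. Summed over all cells, the targeted gene went against the label. Saa3 had 1079 molecules (148 CPM) in the pool labelled wild-type and 1268 (242 CPM) in the pool labelled Saa3-/-. The 2 cells of each pool with the most Saa3 held 382 and 1124 of these molecules. Without them 697 and 144 molecules were left, fewer in the pool labelled Saa3-/-. CPM are molecules per 1000000 molecules of the same cells. Directions below are therefore between pools as labelled. There was 1 pool per genotype and no replicate, so the design allows no test between genotypes, and single cells do not stand in for replicates. Intervals are exact 95% intervals that cover counting error only. The pools shared 0 cell indexes.

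Cells were assigned to classes by markers that include no member, and class names mean this rule. 5 classes had at least 50 cells in each pool and were compared: macrophages (193 and 140 cells), T cells (133 and 140), B cells (50 and 104), fibroblasts (82 and 65) and smooth muscle cells (102 and 66). Monocytes (28 and 23), dendritic cells (30 and 20) and cells with Rag1, Dntt and other thymocyte markers (20 and 61) are given as values, and 296 cells stayed unassigned. Against the CD45 sort, fibroblasts had 133 and 71.6 CPM of Ptprc, the gene of CD45, and smooth muscle cells 94.3 and 149, where macrophages had 797 and 738 and T cells 1390 and 1461.

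**Figure D1:**
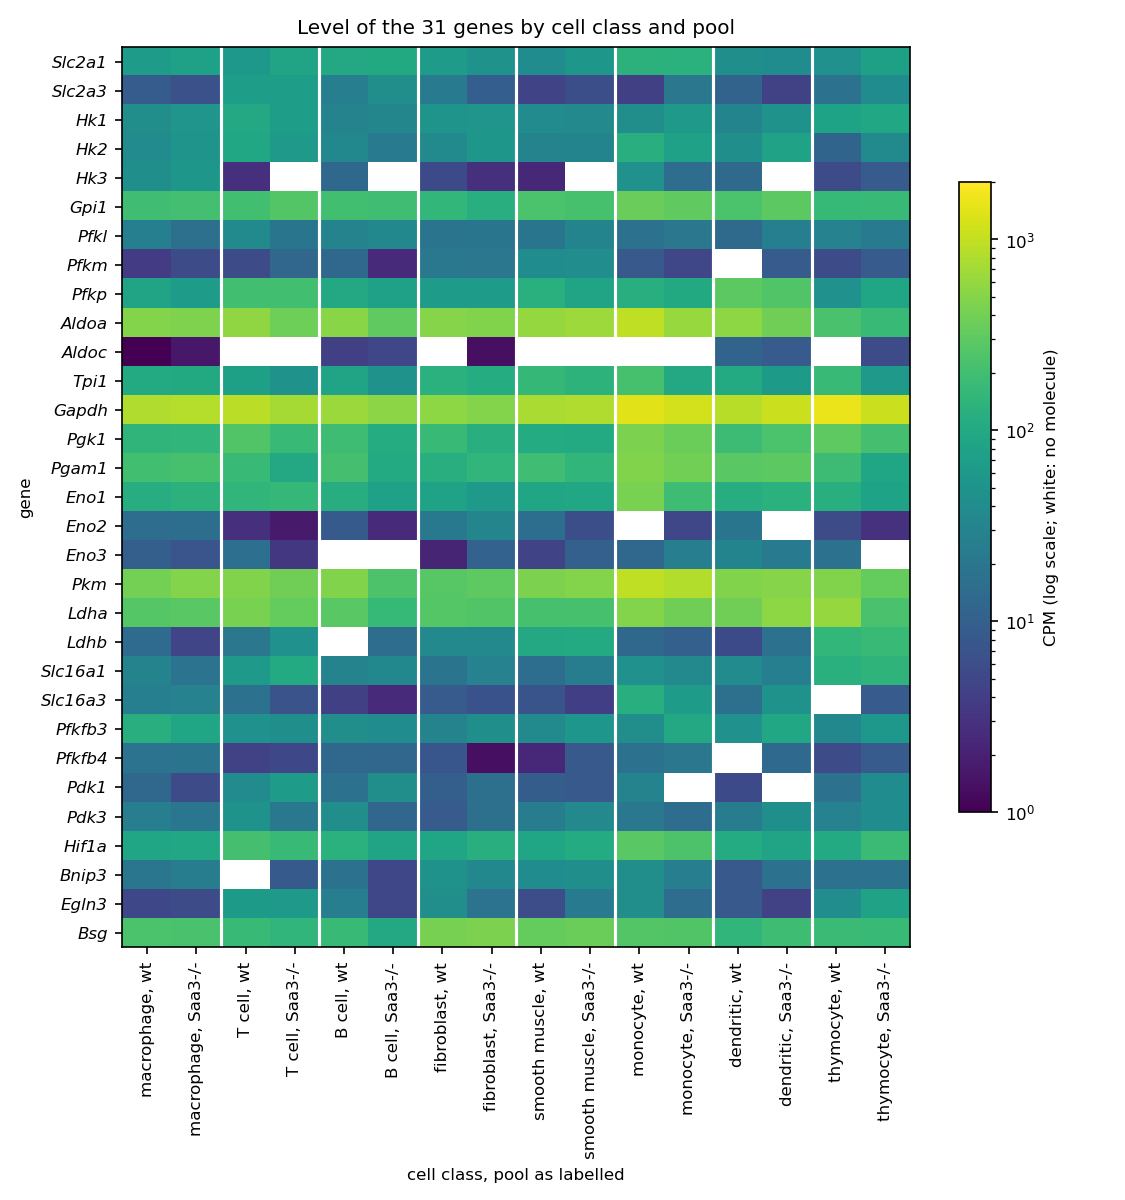
Heat map of the level of each of the 31 genes (rows) in 8 cell classes (column pairs, pool labelled wild-type on the left, pool labelled Saa3-/- on the right), as CPM on a log colour scale, with white for no molecule. Gapdh, Aldoa, Pkm and Ldha were bright in every column, and the monocyte pair was bright over most enzymes, while Hk3, Slc2a3, Egln3 and Ldhb were each bright in a few columns only.

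As a group the members were most abundant in monocytes among the 8 classes. Their summed level was 7209 CPM (6871 to 7560) in monocytes of the pool labelled wild-type and 5631 CPM (5303 to 5973) in those of the pool labelled Saa3-/-. Macrophages had 3667 (3589 to 3746) and 3777 (3669 to 3887) CPM, so the monocyte intervals lay above those of macrophages in both pools. The other 6 classes lay between 2458 CPM, in B cells of the pool labelled Saa3-/-, and 4824 CPM, in thymocyte-marker cells of the pool labelled wild-type. The 8 and 16 neutrophils, too few to compare, had 8724 (7546 to 10035) and 6758 (6131 to 7433) CPM. Single cells carried part of these sums. The top cell held 13.4% and 26.0% of the member molecules of monocytes, and 30.9% of those of thymocyte-marker cells of the pool labelled wild-type. In each class and pool the cell with the most member molecules was left out, a setting chosen after seeing the data, and monocytes were then at 6529 and 5001 CPM and macrophages at 3653 and 3711.

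**Figure D2:**
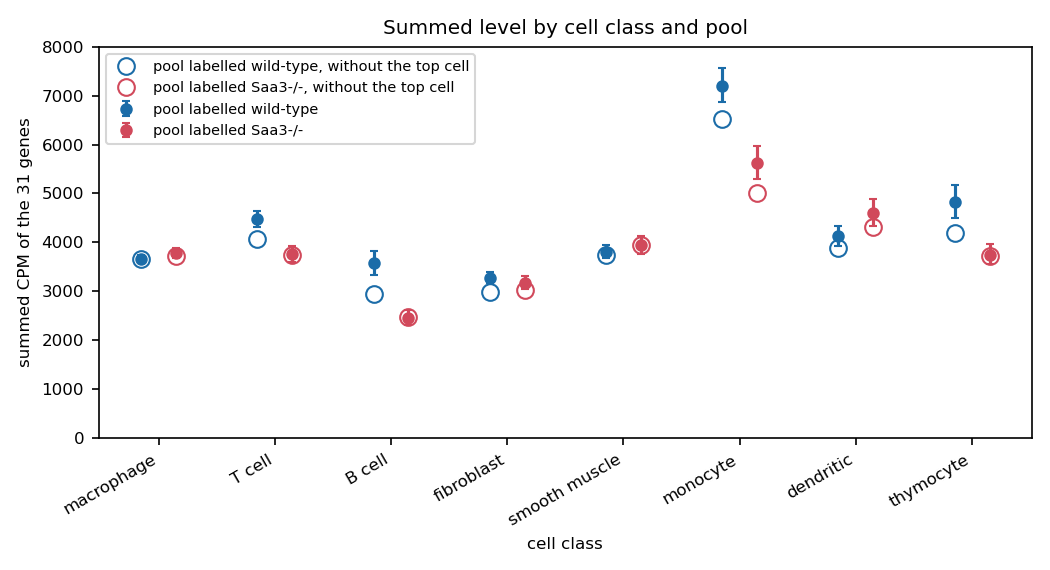
Summed CPM of the 31 genes (vertical axis) for 8 cell classes, filled points with exact Poisson 95% intervals and open circles for the same pool without the 1 cell that held the most member molecules. Monocytes stood highest in both pools (7209 and 5631 CPM). The open circle lay well below the filled point in monocytes of both pools (6529 and 5001 CPM). It also did in B cells and thymocyte-marker cells of the pool labelled wild-type.

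Glucose entry was split between 2 carriers that differed by lineage. Slc2a1 (GLUT1, the widely expressed carrier) held 87.6% (81.7 to 92.2) and 92.3% of the 2 carriers' molecules in macrophages, and at least 89.5% in smooth muscle cells of either pool. In T cells Slc2a3 (GLUT3, a high-affinity carrier) held 55.2% (44.1 to 65.9 by the exact Clopper-Pearson interval) and 44.3% of them. The Slc2a3 level was 69.9 CPM (51.5 to 92.6) and 67.8 CPM (48.2 to 92.7) in T cells against 9.13 (5.65 to 13.95) and 6.52 (2.82 to 12.9) in macrophages, with no overlap of the intervals. A class was called past 2-fold when its CPM was at least 2 times the median of the other 4 compared classes in both pools, or at most 0.5 of it, over genes with at least 50 molecules. 30 members were tested, all but Aldoc. In T cells 5 of the 30 were higher and 3 lower, where 14.3% of all 11050 genes were higher and 11.0% lower. Slc2a3 was 1 of the 5, at log2 2.25 and 2.99 over the other classes, and it was past 2-fold lower in macrophages (-1.45 and -1.61) and smooth muscle cells (-2.25 and -1.55). In neutrophils, 8 and 27 Slc2a3 molecules gave 356 and 429 CPM.

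Hexokinase use differed between macrophages and the T, fibroblast and smooth muscle classes. Hk3, the isozyme known from myeloid cells, had 102 and 69 molecules in macrophages, a level of 44.3 CPM (36.1 to 53.8) and 56.3 CPM (43.8 to 71.2). Monocytes had 46.5 and 15.3 CPM of Hk3. The 8 and 16 neutrophils had 2 and 13 Hk3 molecules of 22466 and 62884 in all, a higher level than in macrophages at few molecules. In T cells Hk3 had 2 and 0 molecules, in smooth muscle cells 2 and 0, in fibroblasts 5 and 2 and in B cells 3 and 0. Thus Hk1, Hk2 and Hk3 stood near equal in macrophages, with Hk3 at 35.2% (29.7 to 41.0) and 35.4% (28.7 to 42.5) of hexokinase molecules, while Hk3 held at most 5.81% in T cells, fibroblasts and smooth muscle cells of either pool. In B cells the family had too few molecules for a share to be read, with 3 of 18 and 0 of 22 from Hk3, and in monocytes 11 of 49 and 3 of 30 were. After each cell was thinned to 2000 molecules, 13 of 189 macrophages (6.88%) and 14 of 138 (10.1%) held an Hk3 molecule. None of 130 and 138 T cells did, which allows a share of up to 2.31% and 2.17% of cells with a molecule. Unthinned, the macrophage shares were 27.5% and 25%, at median depths of 9699 and 6935 molecules against 4394 and 3990.5 in T cells. In macrophages 3 of 30 members were higher than in the other classes (10.5% of all genes) and 3 lower (11.0%): Hk3, Slc16a3 and Pfkfb4 higher, Slc2a3, Pfkm and Egln3 lower. Hk1 and Hk2, the ubiquitous and the insulin- and HIF-linked isozyme, were each past 2-fold in none of the compared classes. The Hk3 gene lies on chromosome 13 from 55005985 to 55021385 (minus strand, GENCODE release 21, GRCm38), and Unc5a overlaps an exon on the opposite strand.

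**Figure D3:**
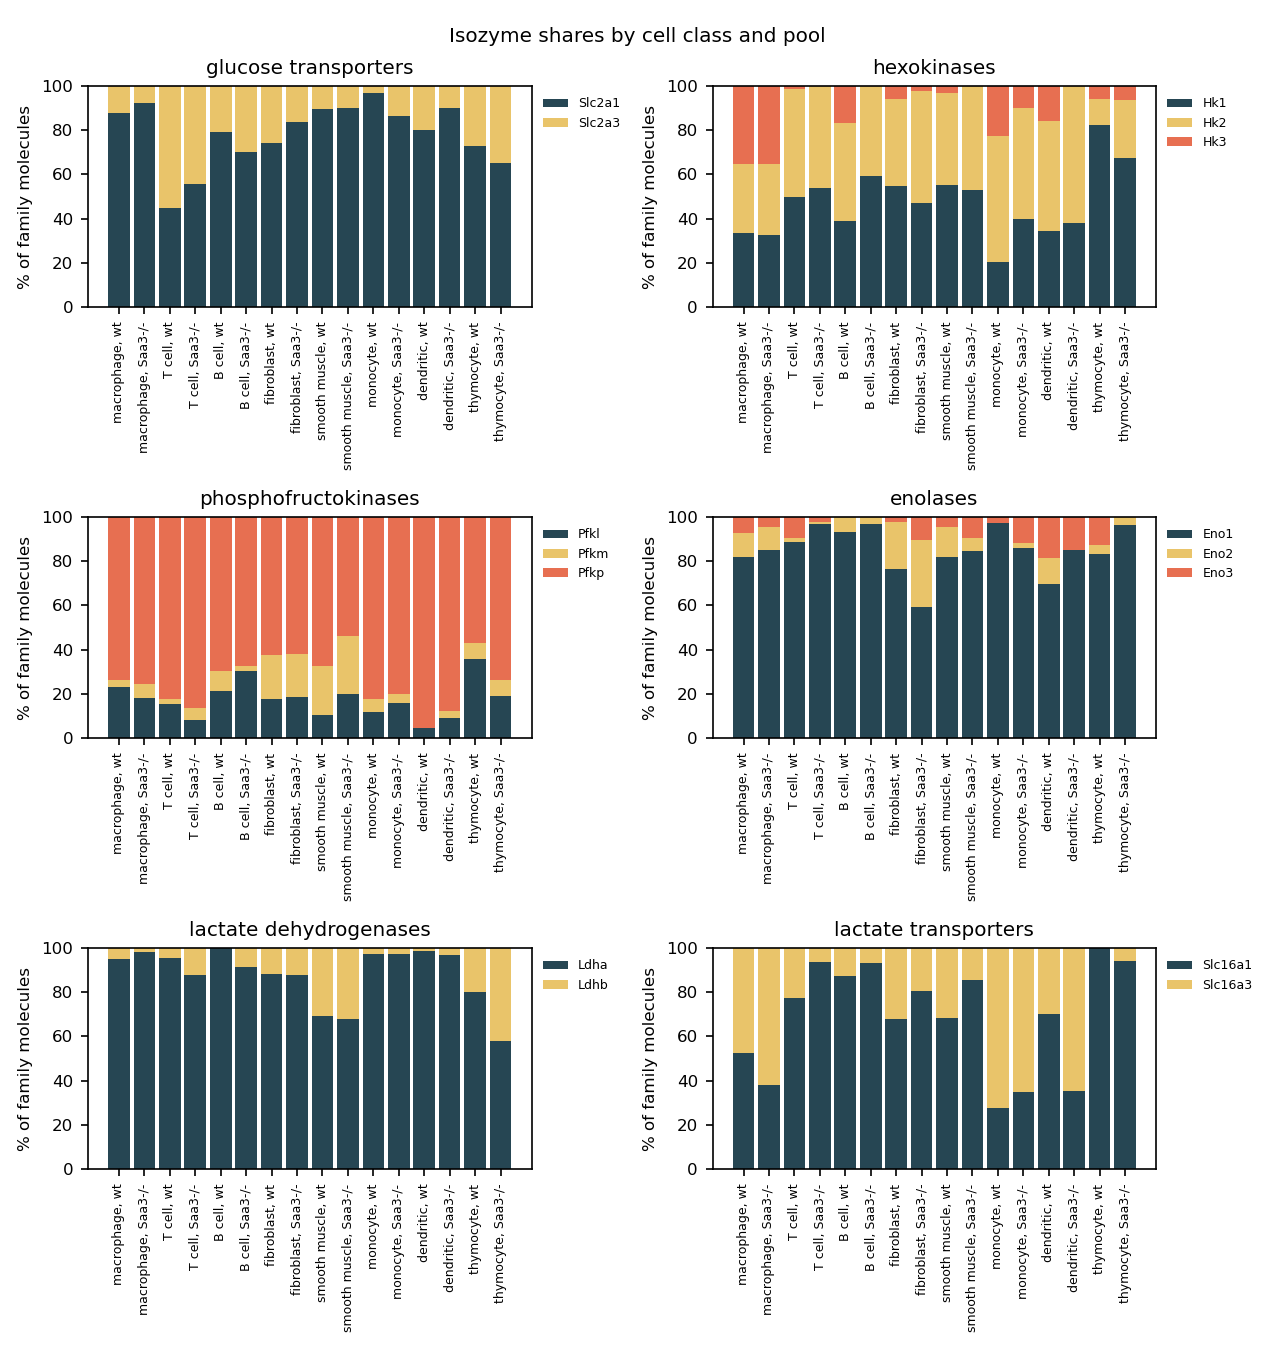
Stacked bars of the share of each isozyme among its family's molecules (vertical axis, percent) in 8 cell classes, pool labelled wild-type left and pool labelled Saa3-/- right in each pair, for 6 families. Hk3 was a visible share in macrophages (35.2% and 35.4%) and monocytes, Slc2a3 in T cells and Ldhb in smooth muscle and thymocyte-marker cells. Slc16a3 was a visible share in macrophages, monocytes and dendritic cells, among others.

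Phosphofructokinase, the committing step, was led by Pfkp, the platelet-type isozyme, in all 5 classes and both pools. Its level was 202 (170 to 239) and 198 CPM (164 to 238) in T cells, past 2-fold over the other compared classes (log2 1.13 and 1.45). Dendritic cells had 292 and 257 CPM, past 2-fold over the 85.2 and 67.7 CPM of macrophages. Against macrophages, dendritic cells had 1 of 24 tested members higher (4.02% of all genes) and 1 lower (7.55%), Pfkp and Hk3. The muscle isozyme Pfkm was found mainly in the vessel wall. It had 40.6 (28.1 to 56.7) and 41.5 CPM (25.3 to 64.1) in smooth muscle cells and 20.8 and 20.7 in fibroblasts, against 3.91 and 5.71 in macrophages. This made 22.2% and 26.3% of phosphofructokinase molecules in smooth muscle cells and 3.38% and 6.36% in macrophages. Pfkl, the liver-type isozyme, ranged from 13.9 to 37.8 CPM over the 8 classes and was past 2-fold in none of the 5 compared.

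Pfkfb3 and Pfkfb4 make fructose-2,6-bisphosphate, the allosteric activator of phosphofructokinase. Pfkfb3 led this pair in all 5 compared classes. Its level was 119 (105 to 134) and 86.5 CPM (70.8 to 105) in macrophages. This was above the 29.5 to 53.9 CPM of the other 4 compared classes in both pools, although not past 2-fold over them in both. Monocytes had 42.3 and 97.2 CPM of Pfkfb3 and dendritic cells 47.3 and 93.1. Macrophages were thus above both in the pool labelled wild-type only. In the pool labelled Saa3-/- both values lay above that of macrophages, but inside the macrophage interval, so neither class was set apart from macrophages. Pfkfb4 was past 2-fold in macrophages over the other compared classes at low counts, 41 and 23 molecules (17.8 and 18.8 CPM). Monocytes were near them, at 16.9 and 20.5 CPM, with overlap of the intervals in both pools. Neutrophils had 6 and 4 molecules of Pfkfb4.

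The middle of the pathway is carried by Gpi1, Aldoa, Tpi1, Gapdh, Pgk1, Pgam1, Eno1 and Pkm, and these were present in all 8 classes. Gapdh, the aldehyde-oxidising enzyme, ranged from 483 to 1600.2 CPM. Aldoa, which splits the 6-carbon sugar, ranged from 172 to 969 CPM and Pkm, the final pyruvate kinase step, from 239 to 965. None of these 8 genes was past 2-fold in any of the 5 compared classes. The counts of several are uncertain, because their transcripts share stretches of 50 bases with other genes: 68.0% of those of Pgk1 (most with Pgk1-rs7), 58.4% of Gapdh, 49.5% of Eno1 (most with Eno1b), 41.5% of Pgam1 and 23.7% of Pkm. Eno1b had its own 638 and 445 molecules in the tables, beside 962 and 643 of Eno1, and how reads were divided between them is not given in the sources used here. Comparisons of 1 gene across cell classes share this limit in every class. Aldoc, the brain-type aldolase, was nearly absent, with 10 and 12 molecules over all cells. Eno2, the neuronal-type enolase, reached 21.9 and 31.7 CPM in fibroblasts, 21.3% and 30.3% of enolase molecules. In T cells it had 2 and 1 molecules, past 2-fold lower. Eno3, the muscle enolase, had 74 and 67 molecules over all cells, and 0 of them in B cells of either pool, where 3 molecules would be 12.8 and 7.48 CPM.

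Lactate dehydrogenase use differed between smooth muscle cells and macrophages. Ldha, the subunit associated with lactate production, led in all 5 compared classes. Ldhb, associated with lactate use, was at 97.9 CPM (77.8 to 121) and 104 CPM (77.0 to 137) in smooth muscle cells, from 82 and 50 molecules. Macrophages had 14.3 and 4.89 CPM and B cells 0 and 14.95. In macrophages of the pool labelled wild-type, 1 cell held 18 of the 33 Ldhb molecules. The Ldhb share of lactate dehydrogenase molecules was 30.9% (25.4 to 36.9) and 32.1% (24.8 to 40.0) in smooth muscle cells, 11.7% and 12.3% in fibroblasts and 5.11% and 1.69% in macrophages. Smooth muscle cells thus had an Ldhb share above that of macrophages in both pools, with no overlap of the intervals. Divided by the length of the longest annotated coding transcript, the smooth muscle shares were 38.4% and 39.6%. In smooth muscle cells 3 of 30 members were higher than in the other classes (13.8% of all genes) and 1 lower (12.7%): Ldhb, Pfkm and Bnip3 higher, Slc2a3 lower. The Ldhb gene lies on chromosome 6 from 142490249 to 142507957 (minus strand), and 21.0% of its 50-base stretches are shared, with the gene Gm5514.

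The thymocyte-marker cells were compared with T cells. Of 23 tested members 1 was higher (6.40% of all genes) and 2 lower (7.88%). Ldhb was higher, at 152 (99.6 to 223) and 166 CPM (126 to 216) against 20.4 and 47.0 in T cells, while Pfkp and Aldoa were lower. Ldhb made 20.0% and 42.2% of the pair's molecules, and in the pool labelled wild-type 1 of the 20 cells held 47 of the 104 Ldha molecules. Without the top cell of each pool the wild-type-labelled share was 29.6%. A list of 8 cycling genes stood at 6571 and 4493 CPM in these cells and at 1259 and 798 in T cells. Its part in these values was not tested.

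Lactate leaves or enters cells through Slc16a1 (MCT1) and Slc16a3 (MCT4), with Bsg (basigin) as their chaperone. Slc16a3, the export-type carrier and a HIF target, was highest in monocytes among the 8 classes, at 123 CPM (82.2 to 176) and 66.5 CPM (35.4 to 114). It had 26.9 and 29.4 CPM in macrophages and at most 17.5 in the other 4 compared classes. In the pool labelled Saa3-/- dendritic cells were next to monocytes, at 48.8 CPM, with overlap of the intervals. Of the 2 carriers' molecules in dendritic cells, 6 of 20 and 11 of 17 were Slc16a3. Neutrophils, with 11 and 35 molecules, had 489.6 and 557 CPM. Slc16a3 held 47.3% (38.6 to 56.2) and 62.1% (48.4 to 74.5) of the 2 carriers' molecules in macrophages and 72.5% and 65.0% in monocytes. In T cells Slc16a1 dominated instead, at 59.7 and 104 CPM, past 2-fold over the other compared classes, and Slc16a3 held 22.6% and 6.25%. Thymocyte-marker cells had more Slc16a1 than T cells, at 123 and 140 CPM, with overlap of the intervals in both pools. Bsg was highest in fibroblasts, at 417 CPM (376 to 461) and 444 CPM (396 to 495), followed by smooth muscle cells at 333 and 363. The intervals of these neighbours overlapped in the pool labelled Saa3-/- and not in the other. In fibroblasts 3 of 30 members were higher than in the other classes (14.9% of all genes) and 0 lower (8.76%), Bsg with Pfkm and Bnip3. In B cells 0 of 30 were higher (11.0% of all genes) and 3 lower (10.9%), Eno3, Ldhb and Slc16a3.

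Over the 9 families with more than 1 member, 5 were led by the same gene in all 5 compared classes and both pools: Pfkp, Aldoa, Eno1, Ldha and Pfkfb3. The leading gene was the same in both pools in 39 of 45 pairs of family and class. The leader was not the same throughout for the glucose carriers, the hexokinases, the lactate carriers and the pyruvate dehydrogenase kinases. Slc2a3 led only in T cells of the pool labelled wild-type (48 against 39 molecules). Slc16a3 led only in macrophages of the pool labelled Saa3-/- (36 against 22). Hk3 led in macrophages of both pools and Hk1 in T and smooth muscle cells of both. Pdk3 led in macrophages and smooth muscle cells of both pools. In fibroblasts Pdk1 and Pdk3 were near equal. A share counts molecules, 1 per captured transcript, with no correction for length unless stated.

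The regulators and targets of the hypoxia response did not follow 1 pattern. Pdk1 and Pdk3 encode kinases that shut pyruvate dehydrogenase. Pdk1, a HIF target, had 39.3 (25.9 to 57.2) and 64.3 CPM (45.3 to 88.7) in T cells, past 2-fold over the other classes, and 13.04 and 5.71 in macrophages. Pdk3 led the pair in macrophages, with 66.7% and 77.4%. Egln3 (PHD3, an oxygen-sensing prolyl hydroxylase that HIF itself induces) was at 62.6 (45.3 to 84.3) and 59.1 CPM (40.9 to 82.6) in T cells and at 5.22 and 5.71 in macrophages. In the pool labelled Saa3-/- thymocyte-marker cells were above T cells, at 78.8 CPM, with overlap of the intervals. Fibroblasts were next to T cells in the pool labelled wild-type, at 42.6 CPM, most of it from 1 cell. Bnip3, a HIF target of mitophagy, was higher in the wall classes than in T cells. It had 0 and 5 molecules in T cells, 48.1 and 34.4 CPM in fibroblasts and 40.6 and 43.6 in smooth muscle cells, past 2-fold higher in both wall classes and lower in T cells. A count of 0 among the T cells of the pool labelled wild-type allows up to 4.37 CPM. Hif1a was at 283 (220 to 360) and 240 CPM (177 to 320) in monocytes, 211 and 170 in T cells and 90.8 (78.9 to 104) and 95.4 (78.9 to 114) in macrophages. Its gene lies on chromosome 12 from 73901375 to 73947530 (plus strand), and 2 other annotated genes overlap its exons, Gm15283 on the opposite strand.

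Monocytes differed from macrophages in the same direction over most members. Of 24 members tested, 3 were past 2-fold higher in both pools, where 2.79% of all 7815 genes were, and 1 was lower, where 4.89% were. Averaged over the pools, 19 of the 24 were above 0, with a median log2 ratio of 0.67, against 0.04 over all genes tested. Pgk1 had 453 (371 to 547) and 358 CPM (279 to 452) in monocytes against 144 and 147 in macrophages, log2 1.65 and 1.29. Slc16a3 was higher by 2.20 and 1.21 and Hif1a by 1.65 and 1.34. Eno1 showed 1.92 in the pool labelled wild-type and 0.53 in the other, so it was past 2-fold in 1 pool only. Eno2 was lower, with 0 and 1 monocyte molecules. Of other hypoxia targets, Vegfa (199 and 113 CPM) and Bhlhe40 (377 and 634) were higher in monocytes and Hmox1 (283 and 128) lower, and of the pentose phosphate genes Taldo1 was higher. Bhlhe40 and Taldo1 were named after their values were seen. Neutrophil markers had a median over monocytes of 171 and 53.2 CPM, against 56919 and 42401 over neutrophils, and macrophage markers 2198 and 2379, against 16521 and 15220 over macrophages. Immediate early genes stood at 2835 and 2639 CPM in monocytes and 3871 and 4182 in macrophages. Their part in the result was not tested.

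Macrophages were then split by the difference between a lipid-laden score (Trem2, Gpnmb, Spp1, Fabp5, Cd9, Lgals3, Cd63) and a resident score (Lyve1, Folr2, F13a1, Cbr2, Cd163, Pf4, Gas6). These are ranges of a score and not types: 108 of the 333 cells lay within 0.5 of equal scores, and 32 and 17 were in neither range. The members' summed level was 4279 CPM (4143 to 4419) and 4245 CPM (4100 to 4394) in the 71 and 76 lipid-laden cells, and 3214 CPM (3107 to 3323) and 2916 CPM (2742 to 3098) in the 90 and 47 resident cells. The lipid-laden level was higher in both pools, by log2 0.41 and 0.54, with no overlap of the intervals. Of 24 members tested, 0 were past 2-fold in both pools in either direction, where 1.95% and 2.33% of all genes were past it higher and lower. Averaged over the pools, 21 were above 0, and the median was 0.38 against 0.04 over all genes tested.

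Not every member followed the sum. Pgam1 had 268.5 and 269 CPM in lipid-laden against 140.4 and 126 in resident cells (log2 0.93 and 1.09). Pkm had 536 and 561 against 316 and 324 (0.76 and 0.79), Aldoa 606 and 566.5 against 395 and 259.5, and Gapdh 973 and 1009.7 against 666 and 552.5. Ldha differed less, at 278 (244 to 315) and 306 (268 to 347) CPM against 264 (234 to 297) and 243 (194 to 299), and Eno1 was at 130.2 and 138 against 102 and 131, with overlap of the intervals within each pool for both genes. Pfkfb3 was lower in lipid-laden cells, at 93.4 and 39.3 CPM against 149 and 176, and Hif1a was at 72.6 and 83.9 against 95.5 and 134. Among other hypoxia targets, Ndrg1 and Bhlhe40 were past 2-fold higher, both named after their values were seen, and Hmox1 was lower. Cycling genes had 694 and 485 CPM in lipid-laden and 441 and 405 in resident cells, and immediate early genes 3837 and 3088 against 3923 and 5620.1. Their part in the result was not tested. The lipid-laden list, which made the split, stood at 6085 and 11131 CPM in the lipid-laden cells. Medians over cells of the neutrophil and monocyte marker sums were at most 152 CPM in lipid-laden and at most 176 in resident cells.

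**Figure D4:**
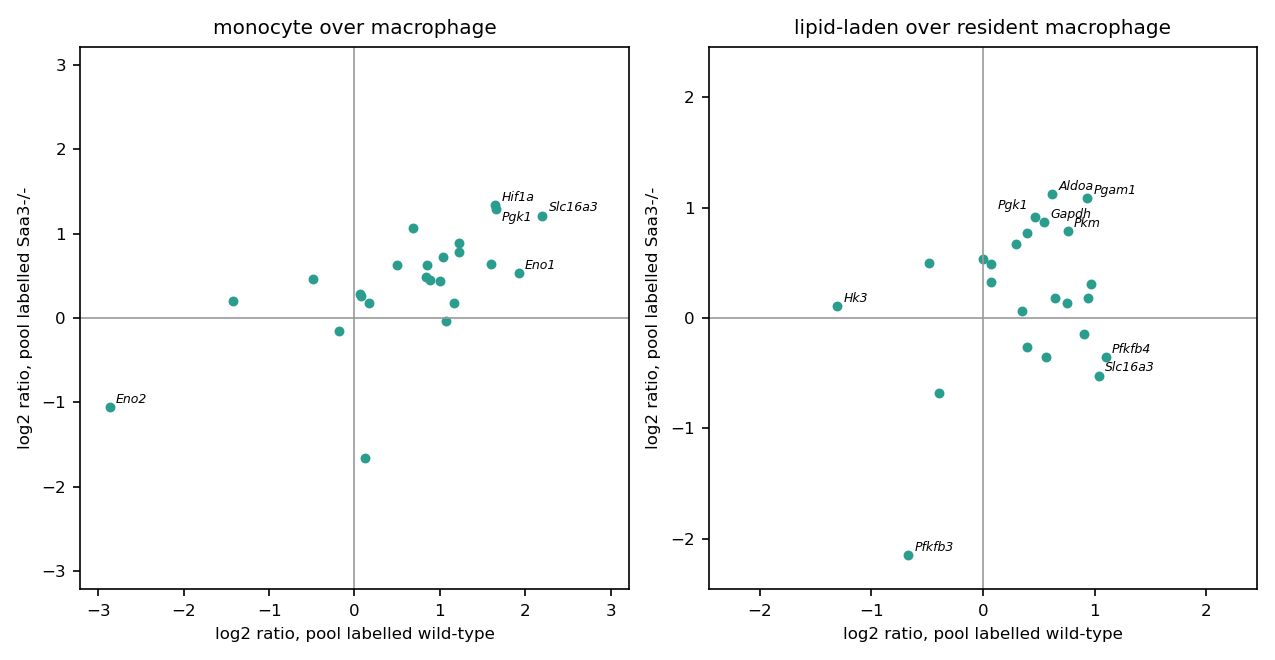
Log2 ratio of CPM for each tested member in the pool labelled wild-type (horizontal axis) and the pool labelled Saa3-/- (vertical axis), monocytes over macrophages on the left and lipid-laden over resident macrophages on the right, 24 genes each. Most points lay above 0 on both axes, with Pgk1, Hif1a and Slc16a3 farthest up on the left, and Pfkfb3 was below 0 on both axes on the right.

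The pools were compared class by class, as the log2 ratio with the level of the wild-type-labelled pool as the denominator. In macrophages none of 24 members with at least 50 molecules was past 2-fold, where 0.938% of all 7466 genes were higher and 1.04% lower. The median of the members was 0.08, against 0.03 over all genes tested, and the summed level differed by 0.04 (-0.01 to 0.09). Pkm, at 412 and 481 CPM, differed by 0.22 (0.07 to 0.37), and Pfkfb3, at 119 and 86.5, by -0.45 (-0.79 to -0.13). The class differed in make-up between the pools: 71 of 193 and 76 of 140 macrophages were in the lipid-laden range, and the lipid-laden list stood at 3398 and 7702 CPM. Within the ranges, Pkm was at 536 and 561 CPM in lipid-laden and 316 and 324 in resident cells. The cells in neither range had 400 and 437 CPM. Pfkfb3 was lower in the pool labelled Saa3-/- in lipid-laden cells (93.4 and 39.3 CPM). It was not lower there in resident cells (149 and 176) or in cells of neither range (90.5 and 124). The part of the make-up in these differences was not tested. In smooth muscle cells 0 of 18 were past 2-fold (0.655% of all genes higher, 1.24% lower), with a median of 0.07 and a summed difference of 0.05 (-0.03 to 0.13).

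In T cells 0 of 20 were past 2-fold (1.37% of all genes higher, 1.48% lower). Yet 15 of the 20 were below 0, with a median of -0.22 against 0.01 over all genes tested, and the summed level was 4477 and 3756 CPM, a log2 ratio of -0.25 (-0.33 to -0.17). Pgam1 had 116 and 56 molecules, a ratio of -0.79 (-1.28 to -0.32), and Slc16a1 41 and 60, a ratio of 0.80 (0.21 to 1.42). In the wild-type-labelled pool, 1 T cell of 55599 molecules held 513 of the 3076 member molecules, 16.7%. Without the top cell of each pool the summed ratio was -0.12, the median -0.06, and 13 of 20 were below 0. With each cell weighing the same the summed ratio was -0.06. Cycling genes were at 1259 and 798 CPM, and their part in the result was not tested.

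B cells had the lowest summed ratio of the 5 compared classes. Of 12 members tested, 2 were past 2-fold lower in the pool labelled Saa3-/- (1.68% of all genes) and 0 higher (2.29%), and 11 were below 0, with a median of -0.67 against 0.03 over all genes tested. Pkm had 112 and 96 molecules, 479.6 and 239 CPM, a ratio of -1.002 (-1.41 to -0.60). Pgam1 had 49 and 42 molecules, 209.8 and 105 CPM, a ratio of -1.001 (-1.63 to -0.38). Both sat at the threshold. The summed level was 3571 and 2458 CPM, a ratio of -0.54 (-0.67 to -0.40). Macrophage markers were also lower in the B cells of the pool labelled Saa3-/-. The 10 markers of the class summed to 1447 and 1022 CPM, the 7 of the lipid-laden list to 826 and 319 and the 7 of the resident list to 574 and 264, with none of the markers at 0 in either pool. Their part in the result was not tested. Among the 50 B cells in the wild-type-labelled pool, 1 cell had 190 of the 834 member molecules, 22.8%, and 38 of the 112 Pkm molecules. Without the top cell of each pool 0 members were past 2-fold, the summed ratio was -0.26, and 8 of the 10 members still tested were below 0. With each cell weighing the same the summed ratio was -0.16.

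In fibroblasts 1 of 19 members was past 2-fold lower (1.82% of all genes) and 0 higher (2.50%), with a summed difference of -0.05 (-0.13 to 0.03). This was Egln3, with 39 and 13 molecules and a ratio of -1.22 (-2.28 to -0.32). 1 cell held 31 of the 39. Without the top cell of each pool the ratio turned to 1.04 (-0.31 to 2.55).

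**Figure D5:**
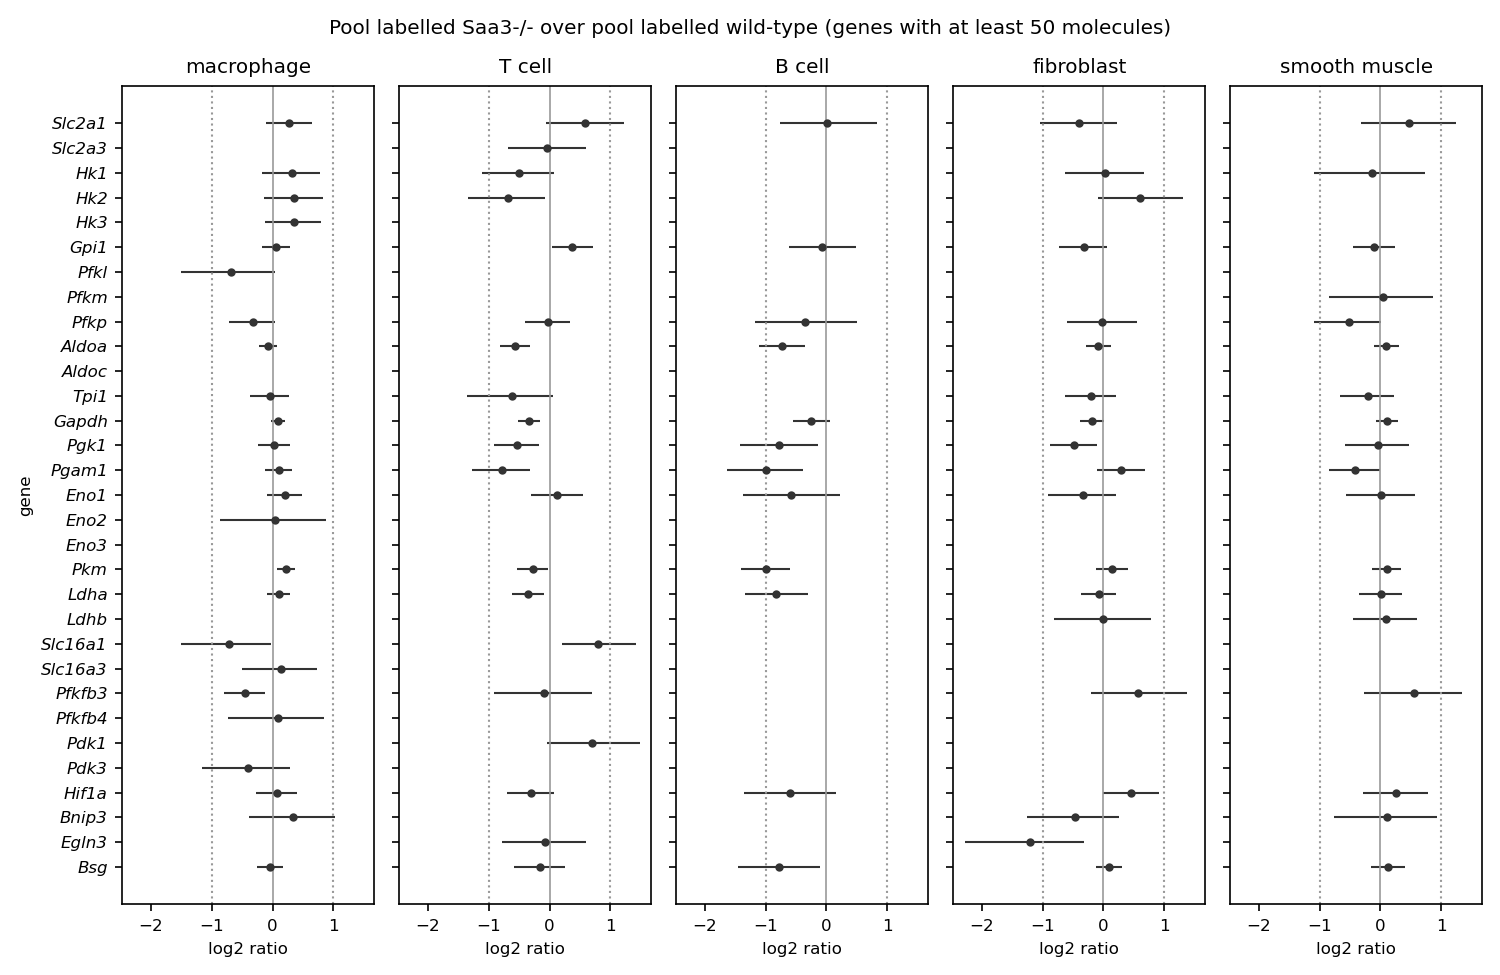
Log2 ratio between the pools (horizontal axis, above 0 where the Saa3-/- labelled pool was higher) for members with at least 50 molecules, in 5 cell classes, with exact conditional-binomial 95% intervals for counting error, and dotted lines at 2-fold. Points lay around 0 in macrophages, fibroblasts and smooth muscle cells, and 11 of 12 lay below 0 in B cells.

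Other genes of the pathway were counted from further lists. Of 7 genes of the HIF machinery, 23 further glycolysis genes, 18 further hypoxia targets, 8 pentose phosphate genes and 27 genes of pyruvate entry and the citric acid cycle, few were past 2-fold between pools. In macrophages 0 of 4 tested HIF machinery genes, 0 of 7 glycolysis, 0 of 8 pentose phosphate and 0 of 23 citric acid cycle genes were, and 1 of 12 hypoxia targets was lower. This was Hmox1 (heme oxygenase 1, also induced by heme and oxidants), with 1402 and 351 molecules, 609 and 286 CPM, a ratio of -1.09 (-1.26 to -0.92). Within the ranges, Hmox1 was at 313 (277 to 353) and 182 CPM (153 to 215) in lipid-laden cells. Resident cells had 949 (891 to 1009) and 530.2 CPM (457 to 611), and cells in neither range 318 and 209. The part of the class make-up given above in the Hmox1 difference was not tested. In fibroblasts 2 of 14 hypoxia targets were lower, Hmox1 (67 and 19 molecules, -1.46) and the angiogenic factor Vegfa (87 and 33, -1.05), and 1 was higher, the transferrin receptor Tfrc, with 20 and 70 molecules and a ratio of 2.12. 1 cell held 47 of the 70, and without the cell with the most Tfrc in each pool the ratio was 0.82. In B cells 1 of 4 hypoxia targets was lower, Tfrc at 63 and 48 molecules (-1.17). 1 cell held 18 of the 63, and without the cell with the most Tfrc in each pool the ratio was -0.92, no longer past 2-fold. In T cells 1 of 5 pentose phosphate genes was lower, Tkt (-1.03), and 1 of 15 citric acid cycle genes, Sdha (-1.02). In smooth muscle cells 0 were past 2-fold on any of the 5 lists.

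The HIF machinery list had no gene past 2-fold between pools in any compared class. Its most abundant genes over all cells were Arnt, the constant partner of Hif1a (56.2 and 51.6 CPM), Egln1 (54.0 and 52.6) and Epas1, which encodes HIF-2α (42.1 and 51.2). Of the further glycolysis genes, the most abundant were Eno1b (87.5 and 85.1 CPM), Slc16a6 (67.1 and 66.5) and Slc16a7 (33.5 and 26.9). Across classes, the 14 tested hypoxia targets were past 2-fold higher in fibroblasts for 5 (14.9% of all genes) and lower for 0. These were Adm (165 and 125 CPM), Ndrg1, P4ha1, P4ha2 and Bhlhe40, named after their values were seen. In macrophages 1 of the 14 was higher, Hmox1, and 2 were lower. Epas1 was past 2-fold higher in both wall classes and lower in macrophages and B cells, where Hif1a was past 2-fold in none.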

How the data were processed

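Counts of molecules per gene and cell came from 2 deposited tables, 1 per sample tag, and the tag of each cell from a deposited tag table. Per the file headers, the authors made them with the BD Rhapsody WTA Analysis Pipeline 1.11.1 against GRCm38 with GENCODE release 19. The headers set the exclusion of intronic reads to off, so reads in introns count toward a gene. Neither strand use nor the handling of multiply mapped reads is given in the sources used here. R 4.3.1 and Seurat 4.3.0 are named in the submitters' processing notes, with no role. Which tag is which genotype is given by the names of the tables alone.

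Python 3.11.15 was used. Cells with at most 25% mitochondrial molecules were kept. Counts were scaled to 10000 per cell, log-transformed and z-scored per marker (capped at 5). A cell took the class of highest mean z if this was at least 0.5, at least 0.25 above the next, and 3 markers had a molecule (2 for small classes of 6 markers). 140 assigned cells had a gap under 0.5. Doublets were not removed; Scrublet called 10 cells, left out in an alternative. Within a class and pool molecules were summed and divided by the total. Intervals were exact Poisson for levels, Clopper-Pearson for shares, and conditional binomial for ratios, with a pseudocount of 0.5 molecule in the ratios. A value of 0 was bounded at 3 molecules. A ratio was taken for genes with 50 or more molecules in the cells compared, and past the fold means 2-fold. There was no test, since each genotype had 1 pool. The ratio functions were tested on simulated Poisson counts per class, with planted changes larger than 2-fold. That simulation had no differences between single cells, so it does not bear on calls near 2-fold or on calls carried by 1 cell. Positions, overlaps and shared 50-base stretches came from GENCODE release 21 on GRCm38.

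All 31 members are reported. Of other lists, genes past 2-fold between pools in a compared class were named (at most 5), or the 3 most abundant where there was none. Members, lists and markers were chosen with earlier results of these data known. Alternatives were other cell filters, Leiden clusters (scanpy 1.11.5, leidenalg 0.10.2), a wider margin, Scrublet, equal cell weights, equal depth, other totals, TMM scaling, other limits and transcript length, and the single-cell omissions and a macrophage split at 0 were added after seeing the data.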

Additional observations from a re-analysis of the deposited data

How the results depend on the processing

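No paired analysis was possible because each genotype had 1 pool and the pools carry no replicate numbers. Of 795 values recomputed under alternatives, 707 stayed within their counting interval or within 1.5 times the count. Of the 153 log2 ratios among them 6 changed sign: Egln3 in fibroblasts under 2 settings, and 4 summed ratios between pools near 0, in macrophages, fibroblasts and smooth muscle cells. The omission of the cell with the most member molecules in each class and pool, the omission of the cell with the most of a named gene, and the macrophage split at a score difference of 0 were chosen after seeing the data. The cause of the moves below was not tested, except that fewer cells, or a lower limit, enter by construction where a setting says so.

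Between pools, the fibroblast ratio of Egln3 was 1.04 without the top cells and 0.64 without the cell with the most Egln3 in each pool. In the same setting the B cell ratios of Pkm and Pgam1 were -0.54 and -0.62. The summed ratio in macrophages was -0.030 with TMM scaling. In T cells it was -0.060 with equal cell weights and -0.12 without the top cells. In B cells it was -0.15 with Leiden clusters, -0.27 with a wider class margin, -0.16 with equal cell weights and -0.26 without the top cells. The count of B cell members past 2-fold lower was 0 with Leiden clusters, the wider margin, equal cell weights, totals without mitochondrial, immunoglobulin and ribosomal protein genes, TMM scaling or without the top cells, and 1 at equal depth or with a pseudocount of 1 molecule. The fibroblast count lower was 0 with Leiden clusters, equal cell weights or without the top cells. The macrophage count lower was 1 with the wider margin, and the T cell count lower was 1 with equal cell weights. With a minimum of 20 molecules, 2 members were lower in macrophages, 1 higher and 1 lower in T cells, 1 higher in B cells and 2 lower in fibroblasts. At 1.5-fold, 2 were lower in macrophages, 2 higher and 3 lower in T cells, 7 lower in B cells and 1 higher in fibroblasts.

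Against the other classes, 1 member was higher in B cells with stricter cell filters, the wider margin, equal cell weights, the reduced totals or without the top cells, and 6 were lower with the wider margin. In fibroblasts 1 was higher with equal cell weights, equal depth or the reduced totals, and 1 was lower with equal cell weights. In smooth muscle cells 2 were lower with all deposited cells, Leiden clusters, the wider margin, Scrublet calls removed or the reduced totals. At 1.5-fold, 8 were higher and 6 lower in T cells, 4 higher in B cells, 5 higher in fibroblasts, 5 higher and 3 lower in smooth muscle cells, and 9 higher in monocytes than in macrophages. The summed log2 ratio of monocytes over macrophages was 0.82 and 0.38 with Leiden clusters and 0.84 and 0.43 without the top cells. That of lipid-laden over resident macrophages was 0.58 with Leiden clusters in the wild-type-labelled pool.

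Depth limits genes with few molecules, such as Hk3 outside macrophages, Aldoc and Eno3. 1 pool per genotype gives no measure of the spread between animals.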
